A study of Mus musculus with 8 samples.

Results

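The open chromatin of 2 myeloid regulator genes, Spi1 and Cebpa, was described from ATAC-seq peak lists of c-Kit+ mouse bone marrow cells. Members were chosen by position alone. They are the peaks of all 8 libraries that overlap an 80 kb window on chromosome 2 holding Spi1 with its upstream regulatory element, chr2:90900000-90980000, or a 130 kb window on chromosome 7 holding Cebpa with its downstream enhancer, chr7:35870000-36000000 (mm9 build, positions from 1). The windows took 206 of the 557040 peaks in all lists. Peaks of different libraries that shared at least 1 base were joined into regions, which gave 40 regions of 114533, 20 at each locus. The regions are called S1 to S20 at Spi1 and C1 to C20 at Cebpa, in order along the chromosome.

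Spi1 encodes PU.1, an ETS-family transcription factor needed for macrophages, granulocytes and lymphocytes. Its level in progenitors is set in large part by the upstream regulatory element, a distal enhancer to which PU.1 itself and RUNX1 bind, and loss of that element lowers PU.1 and leads to leukemia in mice. Cebpa encodes C/EBPα, a leucine-zipper factor required for the step from common myeloid to granulocyte-monocyte progenitors, and the enhancer downstream of the gene drives its expression in myeloid progenitors. Both factors are often disturbed in acute myeloid leukemia. Cohesin, the ring complex of which Smc3 is a core subunit, holds distal enhancers and promoters in chromatin loops.

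The promoter of Cebpa is shown because C4, the joined region that holds the approximate gene start, had the highest score in every list. In the series, 12776 of 114533 regions did. Whether the bases shown lie under the peaks was not tested, since that start is approximate and the sequence comes from another build. RefSeq's promoter table (GRCm38.p6 build) held 1 of the 2 genes, and the 250 bases before the Cebpa start read 5′ to 3′, with capitals for a TATA box match:
Cebpa: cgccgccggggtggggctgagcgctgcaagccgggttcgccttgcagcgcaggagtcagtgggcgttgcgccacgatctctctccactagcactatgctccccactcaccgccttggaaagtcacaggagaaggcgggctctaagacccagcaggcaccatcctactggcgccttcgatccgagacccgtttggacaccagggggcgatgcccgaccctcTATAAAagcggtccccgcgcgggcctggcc
The letters of 4 motifs were searched on both strands, and none of the 4 is contained in another. TATAAA, which TATA-binding protein recognises, was found once, from 30 to 25 bases before the start, and 12.4% of 32851 promoters of this length held it. CCAAT, the site of NF-Y, stood in 33.8% of promoters and had no match in these letters. The same was true of GGGCGG, a site of Sp1, held by 32.7%, and of GAGGAA, the core of many PU.1 sites, held by 23.3%. GC content was 66.4%, against a median of 52.4% over all promoters in the table.

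Marrow was taken 4 weeks after PIpC, which induces the Mx1-Cre recombinase in blood cells and other interferon-responsive tissue, was selected for c-Kit with magnetic beads, and gave 50000 cells per library. Control mice were Smc3 fl/+ and lacked Mx1-Cre. Mice of the other genotypes carried Mx1-Cre per the titles, and were Smc3 del/+, Flt3-ITD, or Smc3 fl/del Flt3-ITD (titled Smc3het_Flt3ITD, and called Smc3-deleted Flt3-ITD here), with 2 libraries each. Control and mutant mice thus differ in Mx1-Cre as well, and the labels leave it unclear whether the other Smc3 allele of the combined genotype was floxed or wild type. Age is not given. Titles and genotype labels set the groups used here, although GEO's free description attaches the Smc3 deletion to Flt3-ITD libraries and the reverse. Marrow came from individual mice, but the labels do not say outright that both libraries of a genotype came from different ones, so p-values measure the spread between libraries. Lists held 61953 to 80698 peaks over 34.1 to 41.7 Mb. Both Smc3-deleted Flt3-ITD libraries stood apart, with the longest lists, 282 and 294 peaks on chromosome Y against 84 to 98 in the others, and 2.60% and 2.72% of their peaks on X against 3.49% to 3.79%. The sex of the mice was not used here, and whether it differed between these and the other libraries was not tested. Read depth is unknown, so a missing peak cannot be told from too few reads, and in bulk cells fewer cells of a type cannot be told apart from less accessibility per cell. No mm9 gene annotation was used here. Marker genes of progenitors and of other cells the selection could hold were therefore not analysed, and no region was assigned to the Spi1 start or to its upstream regulatory element.

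At Spi1, all 4 libraries with a Smc3 deletion had more bases under peaks than all 4 without. Bases covered in the window were 5652 and 6604 in control, 6430 and 6331 in Flt3-ITD, 8338 and 7854 in Smc3 del/+, and 7450 and 7561 in Smc3-deleted Flt3-ITD. The 2 sides did not overlap, with 7801 ± 397 against 6254 ± 417 bases (SD, n = 4 each). Most of this gap lay in regions not called in every library, all scored below 1. In S14, for example, Smc3 del/+ had 1436 and 415 bases, and control and Flt3-ITD had none. The 10 regions called in all 8 libraries added little to it. The difference of 1546.5 bases had the smallest two-sided p that an exact permutation test of these libraries can give (0.0286), but missed the threshold once the 6 tests were adjusted together (Benjamini-Hochberg adjusted p = 0.171). Without both libraries of the combined genotype it was 1842 (exact permutation p = 0.0667, the smallest these 6 libraries can give), and in the upper 50% of each list by score it was 623 (exact permutation p = 0.114). Among 13075 autosomal windows of the same length with a peak in every library, 2.24% had all 4 libraries with a Smc3 deletion above the 4 without. The order did not hold when bases were set against the length of each list: per Mb covered in the whole list, Smc3 del/+ libraries had 228 and 211 bases, Smc3-deleted Flt3-ITD libraries 180 and 181, Flt3-ITD libraries 169 and 174, and control libraries 145 and 194 (exact permutation p = 0.143). The highest control library then lay above both libraries of the combined genotype, and only Smc3 del/+ stayed above all others.

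**Figure D1:**
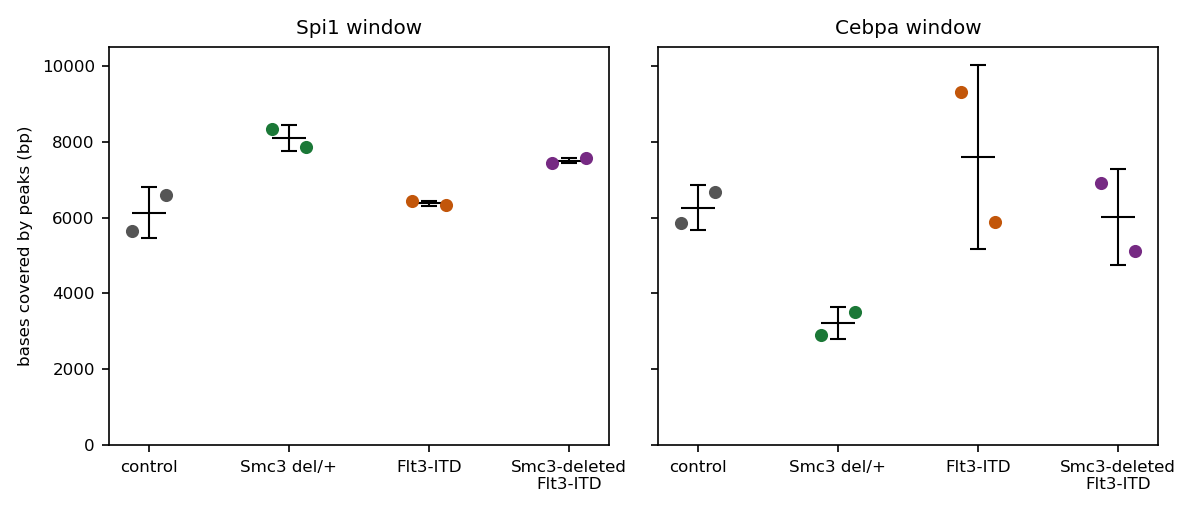
Bases covered by peaks in each window (bp, vertical axis) for each genotype. Points are libraries, horizontal lines are means and bars are SD (n = 2). At Spi1 the libraries with a Smc3 deletion sit between 7450 and 8338 bases and the others between 5652 and 6604. At Cebpa both Smc3 del/+ libraries, at 2915 and 3522, lie below all others.

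Libraries with and without Flt3-ITD overlapped at Spi1. The 4 with the duplication had 6943 ± 652 bases and the 4 without had 7112 ± 1217 (SD, n = 4 each; exact permutation p = 0.8), and the ranges of 6331 to 7561 and 5652 to 8338 overlapped. The difference of -169 turned positive, to between 2 and 239.7 bases, without any 1 of the Flt3-ITD or Smc3 del/+ libraries, and was 357.5 in the upper 50% of each list by score. For the interaction, which sets control and the combined genotype against the single genotypes, the difference was -421.5 bases (exact permutation p = 0.543). The number of peaks was 15 and 12 in control, 12 and 13 in Flt3-ITD, 16 and 14 in Smc3 del/+, and 14 and 16 in Smc3-deleted Flt3-ITD, and control overlapped every other genotype while Flt3-ITD lay below both genotypes with a Smc3 deletion. The window as a whole was rich in open chromatin: it held 7028 bases on average over libraries, and 96.9% of the autosomal windows held fewer (median 2164).

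**Figure D2:**
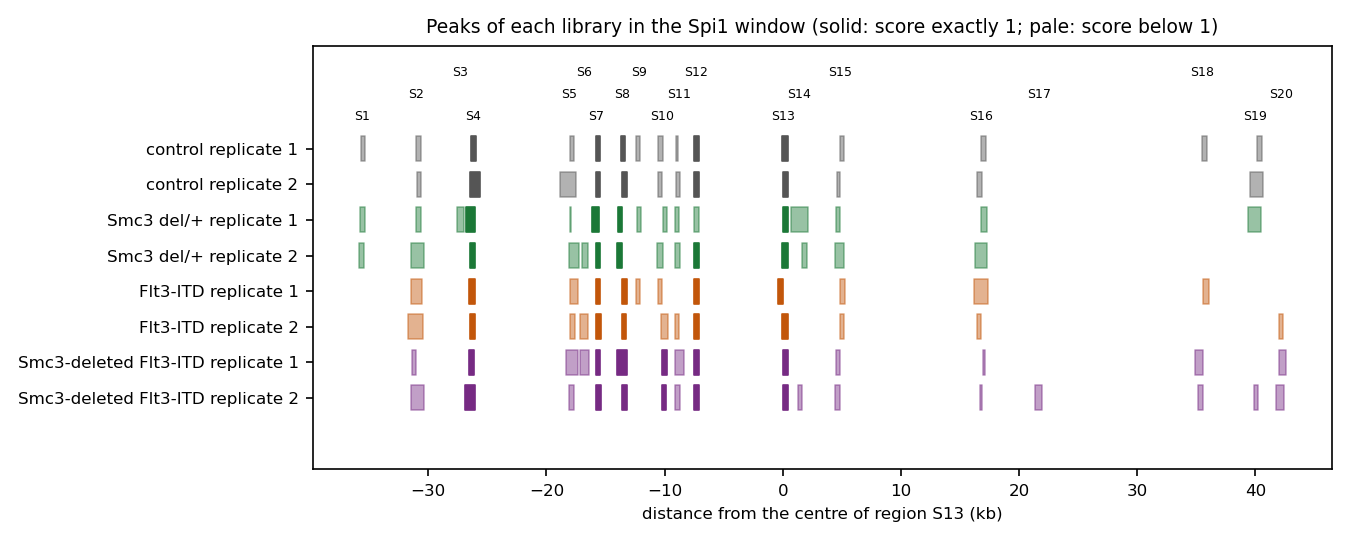
Peaks of the 8 libraries in the Spi1 window, as bars along the distance in kb from the centre of region S13 (horizontal axis), 1 row per library, coloured by genotype. Solid bars have a score of exactly 1 and pale bars a lower score. Solid bars stand in every row at S4, S7, S8 and S13, though in S8 and S13 no base is shared by all rows. S12 is solid in all rows but that of Smc3 del/+ replicate 1, and S10 only in both combined libraries. S14 is filled in both Smc3 del/+ libraries and in 1 of the combined genotype.

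Of the 20 regions at Spi1, 10 were called in all 8 libraries, 50% against 31.5% of all regions in the series. These were S2, S4, S5, S7, S8, S10, S12, S13, S15 and S16. A score of exactly 1, the top of the authors' scale, stood in every library at S4 (chr2:90910140-90911374), S7 (chr2:90920868-90921600), S8 (chr2:90922944-90923828) and S13 (chr2:90936545-90937435). These 4 were 40% of the 10 regions called everywhere at Spi1, against 35.4% of such regions in the series. On the plus strand, to which Spi1 belongs, S4, S7 and S8 lie on the upstream side of S13, with centres 26.2, 15.8 and 13.6 kb before its own. S12 (chr2:90929445-90929934), 7.30 kb before S13, had the score of 1 in 7 libraries and was the most evenly called region of the locus, with 395 to 465 bases in every library and peak centres within 40.5 bases of each other.

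S13 was covered by similar lengths in every genotype. Its bases covered were 454 and 350 in control, 380 and 440 in Smc3 del/+, 457 and 506 in Flt3-ITD, and 383 and 413 in Smc3-deleted Flt3-ITD. Both Flt3-ITD libraries were the longest, only just above control replicate 1. The peak of Flt3-ITD replicate 1, chr2:90936545-90937001, began before those of the other 7 libraries, which began between 90936930 and 90937050. It overlapped only some of them. At S4 the values were 397 and 826 in control, 708 and 406 in Smc3 del/+, 436 and 359 in Flt3-ITD, and 459 and 771 in Smc3-deleted Flt3-ITD. Both Flt3-ITD libraries lay below both of the combined genotype, and the other pairs of genotypes overlapped. S7 ranged from 313 to 606 bases with a median of 346.

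At S8 the place of the peak differed more than its length. Control peaks lay at chr2:90923328-90923674 and chr2:90923385-90923782, and Flt3-ITD peaks at chr2:90923394-90923828 and chr2:90923396-90923744. Both Smc3 del/+ peaks began before these, at chr2:90923053-90923385 and chr2:90922988-90923368, and neither shared a base with a Flt3-ITD peak. Their ends overlapped the peak of control replicate 1, and the first shared its last base with that of control replicate 2. In the combined genotype, replicate 2 was called at chr2:90923396-90923785, and replicate 1 had a single peak of 823 bases, chr2:90922944-90923766, over both places. As a consequence no base of S8 was covered in all 8 libraries. The same held for S2, S10, S13 and S16. A base common to all libraries was thus found in 5 of the 10 regions called everywhere at Spi1 (50%) and in 5 of 5 at Cebpa (100%), against 54.3% of such regions in the series. This shift at S8 was picked out after its values were seen and rests on 2 libraries, with no test.

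S10 (chr2:90926317-90927266) was called at 2 places as well. Peaks began between 90926317 and 90926422 in both control libraries, Flt3-ITD replicate 1 and Smc3 del/+ replicate 2, and between 90926710 and 90926879 in Flt3-ITD replicate 2, Smc3 del/+ replicate 1 and both libraries of the combined genotype. The latter were the only libraries with a score of 1 there, whereas the scores of Smc3 del/+ stood at the percentiles 11.3 and 27.4 of their own lists. Over whole lists, a score of 1 was held by 34.7% and 34.9% of peaks in the combined libraries. It was held by 27.2% and 27.3% in Smc3 del/+ and by 30.9% to 32.0% in the others. S16 (chr2:90953146-90954337), on the downstream side, 16.8 kb past S13, had 171 and 166 bases in the combined genotype, 402 and 404 in control, 527 and 981 in Smc3 del/+, and 1192 and 377 in Flt3-ITD. Both combined libraries lay below the other 6. Its log2 difference for the interaction, -1.32 ± 0.41 (SE), did not pass in limma's test over all regions (adjusted p = 0.544). 

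S2 (chr2:90905268-90906621) and S5 (chr2:90918103-90919705) had the largest mean coverage among the regions of the locus called in all 8 libraries. S2 was covered over 396 and 341 bases in control, 372 and 1075 in Smc3 del/+, 912 and 1247 in Flt3-ITD, and 389 and 1056 in Smc3-deleted Flt3-ITD. Both Flt3-ITD libraries lay above both control libraries there, and the other genotypes each had a wide and a narrow peak. S5 was covered over 338 and 1379 bases in control, 116 and 836 in Smc3 del/+, 632 and 351 in Flt3-ITD, and 995 and 383 in Smc3-deleted Flt3-ITD, the widest spread between libraries of 1 genotype among the regions called everywhere here. S15 (285 to 765 bases) was the last of them, with overlapping genotypes.

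Less regular regions at Spi1 separated genotypes in a few cases, all with scores below 1, the authors' highest. S14 (chr2:90937678-90939113), which begins just past S13, was called in both Smc3 del/+ libraries with 1436 and 415 bases, in Smc3-deleted Flt3-ITD replicate 2 with 356, and in no control or Flt3-ITD library. S1 (chr2:90901164-90901655), at the far upstream end, was called in both Smc3 del/+ libraries (406 and 386 bases) and in control replicate 1 (325), and in none with Flt3-ITD. At the other end, S20 (chr2:90978714-90979544) was called in both libraries of the combined genotype (541 and 689 bases) and in Flt3-ITD replicate 2 (367), and in none without Flt3-ITD. S18 (chr2:90971876-90973051) was called in both combined libraries (663 and 425), control replicate 1 (438) and Flt3-ITD replicate 1 (524). S19 (chr2:90976370-90977600) was called in both control libraries (426 and 1095), Smc3 del/+ replicate 1 (1081) and the combined replicate 2 (288). With equal numbers of peaks per library, S18 and S19 were each called in 3 libraries. S6 and S9 were called in 3 libraries of 3 genotypes each, S11 in all but Flt3-ITD replicate 1, and S3 and S17 in a single library.

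At Cebpa, Smc3 del/+ libraries had the fewest peaks and the fewest bases under them. Bases covered in the window were 2915 and 3522 in Smc3 del/+, 5849 and 6682 in control, 9320 and 5886 in Flt3-ITD, and 6923 and 5130 in Smc3-deleted Flt3-ITD. Their peaks numbered 8 and 7, against 11 and 11, 16 and 12, and 15 and 14 in the same order. Smc3 del/+ libraries also had the fewest peaks in their whole lists, 61953 and 63401, though not the fewest Mb covered. Smc3 del/+ covered 3219 ± 429 bases (SD, n = 2) and control 6266 ± 589 (SD, n = 2), and the groups did not overlap. Both Smc3 del/+ libraries were below the other 6 also per Mb covered in the list, at 79.9 and 94.7 bases against 123 to 245. Of 9645 autosomal windows of the same length with a peak in every library, 7.30% showed that order in bases covered and 6.24% per Mb. The order within 2 against 2 libraries was not tested, since no such permutation can pass.

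Over all 8 libraries, neither factor passed at Cebpa. Libraries with a Smc3 deletion had 4623 ± 1796 bases and those without had 6934 ± 1636 (SD, n = 4 each), a difference of -2312 (exact permutation p = 0.143, adjusted p = 0.343). Smc3-deleted Flt3-ITD replicate 1, at 6923, lay within the range of the libraries without a deletion, and without it the difference was -3079 (exact permutation p = 0.0286, unadjusted). Without Flt3-ITD replicate 1 it was -1516.5 (exact permutation p = 0.257), and in the upper 50% of each list by score it was -942 (exact permutation p = 0.229). Without both combined libraries it was -3716 (exact permutation p = 0.0667, the smallest possible). Libraries with Flt3-ITD had 6815 ± 1825 bases and those without 4742 ± 1809 (exact permutation p = 0.171, adjusted p = 0.343), with overlapping ranges. This difference of 2073 was 1238 without Flt3-ITD replicate 1, 1183 in the upper 50% and 1191 with equal numbers of peaks. The interaction difference was 735 bases (exact permutation p = 0.714), and it was 2038 without Flt3-ITD replicate 1, 105.7 without Smc3 del/+ replicate 2 and -96.7 without Smc3 del/+ replicate 1, so that its direction turned. The window held 5778 bases on average, more than 80.8% of the autosomal windows of its length.

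**Figure D3:**
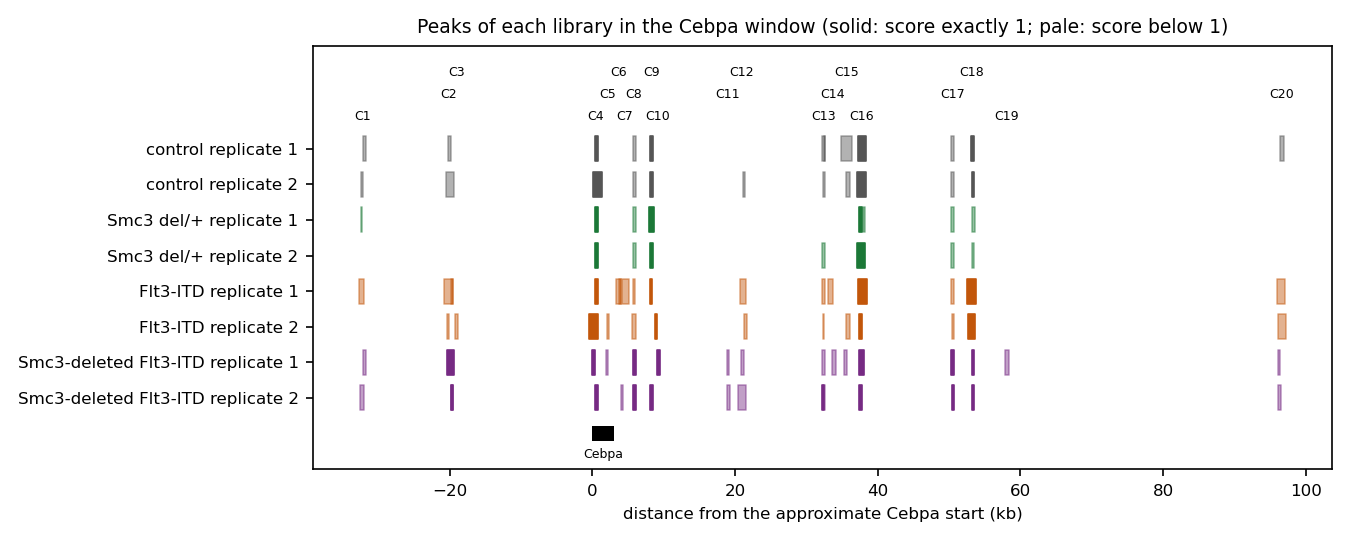
Peaks of the 8 libraries in the Cebpa window along the distance in kb from the approximate Cebpa start (horizontal axis; the black bar is the gene's approximate extent), 1 row per library, coloured by genotype, solid for a score of exactly 1 and pale for lower scores. C4 at the gene and C16 on its downstream side hold a solid bar in all 8 rows, most bars of C20 lie past the window's end, and the Smc3 del/+ rows hold 8 and 7 bars.

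The regions at the gene and nearest the enhancer distance were called in every library, Smc3 del/+ included. C4 (chr7:35903570-35905341) holds the approximate Cebpa start at 35904000 and had a score of 1 in every library. Only the peaks of Flt3-ITD replicate 2 and Smc3-deleted Flt3-ITD replicate 1 covered that position, and the others began between 35904089 and 35904397. Bases covered at C4 were 430 and 1253 in control, 382 and 457 in Smc3 del/+, 381 and 1182 in Flt3-ITD, and 421 and 378 in Smc3-deleted Flt3-ITD. A wide and a narrow call stood side by side in control and in Flt3-ITD. Both control libraries lay above both combined libraries, and the other pairs of genotypes overlapped. C16 (chr7:35941106-35942505), centred 37.8 kb past that start and nearest to the enhancer known about 37 kb downstream, was the other region at Cebpa with a score of 1 in all 8 libraries. It was covered over 1132 and 1239 bases in control, 654 and 1131 in Smc3 del/+, 1295 and 394 in Flt3-ITD, and 738 and 330 in the combined genotype. Both control libraries lay above both combined libraries, while the single genotypes each had a wide and a narrow library. A stretch of 319 bases of C16 was covered in all 8 libraries. Of the regions called in every library at Cebpa, 40% had a score of 1 in all of them, against 35.4% in the series.

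C8 (chr7:35909573-35910122) and C17 (chr7:35954283-35954728) were called in all libraries over 335 to 508 and 368 to 435 bases, and had a score of 1 only in both combined libraries. The combined lists also held the largest share of peaks with that score (34.7% and 34.9%). C9 (chr7:35911997-35912587) was called with a score of 1 in 6 libraries, in all but Flt3-ITD replicate 2 and Smc3-deleted Flt3-ITD replicate 1. These 2 libraries were the only ones with a call at C10 (chr7:35912813-35913501), also with a score of 1, so that each of the 8 libraries had exactly 1 of the neighbouring regions. C13 (chr7:35936147-35936642) was called in all but Smc3 del/+ replicate 1.

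C18 (chr7:35956561-35957703) was wide in Flt3-ITD alone. Both Flt3-ITD libraries covered 1143 and 954 bases, against 397 and 279 in control, 315 and 349 in Smc3 del/+, and 351 and 189 in Smc3-deleted Flt3-ITD. The Flt3-ITD peaks began at 35956561 and 35956617, before the earliest of the others at 35957080. Its score was 1 in all but the Smc3 del/+ libraries, whose lists held the smallest share of peaks with that score (27.2% and 27.3%). In limma's fit over all regions the log2 difference was -1.03 ± 0.27 (SE) for Smc3 deletion (adjusted p = 0.534), -0.91 ± 0.27 for the interaction (adjusted p = 0.518) and 0.67 ± 0.27 for Flt3-ITD (adjusted p = 0.709), so none passed.

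**Figure D4:**
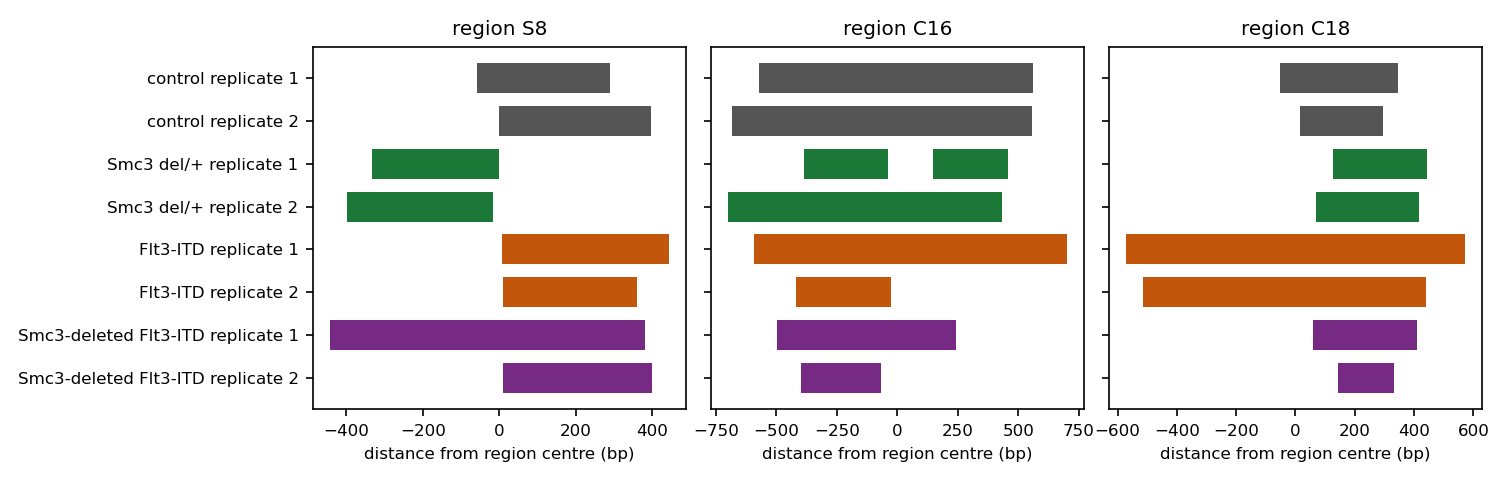
Extent of the peaks of each library in regions S8, C16 and C18, in bp from the centre of the region (horizontal axes), 1 row per library, coloured by genotype. In S8 the Smc3 del/+ peaks lie on the left and the Flt3-ITD peaks on the right. In C18 the Flt3-ITD peaks, at 1143 and 954 bases, reach far to the left of the others.

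Regions missing from Smc3 del/+ lay on both sides of the gene. C2 (chr7:35883158-35884598), on the upstream side of the gene, had a peak in each of the other 6 libraries, over 403 and 1074 bases in control, 1369 and 360 in Flt3-ITD, and 983 and 344 in the combined genotype, where alone its score was 1. In Smc3 del/+ no peak lay closer than 1 kb. Over whole lists too, a score of 1 was most frequent in the combined libraries. C12 (chr7:35924353-35925621) was called in both Flt3-ITD (921 and 430) and both combined libraries (420 and 1135), in control replicate 2 (312) and in no Smc3 del/+ library. Its scores stood at percentiles from 0.635 to 38.8 of their lists. With equal numbers of peaks per library C12 was called in 2 libraries. C15 (chr7:35938910-35940350), which ends before C16 begins, was called in both control libraries (1441 and 577), Flt3-ITD replicate 2 (550) and the combined replicate 1 (377), and Smc3 del/+ replicate 2 had a peak within 1 kb. C20 (chr7:35999957-36001175) entered through 1 Flt3-ITD peak that reaches 44 bases into the window, and its other 4 peaks lie past the window's end. It was called in both Flt3-ITD and both combined libraries, in control replicate 1 and in no Smc3 del/+ library. With equal numbers of peaks per library C20 was called in 3 libraries.

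The remaining regions at Cebpa were called in fewer libraries. C11 (chr7:35922814-35923220) was called over 379 and 311 bases in the combined genotype and in no other, with scores at the percentiles 3.58 and 33.3 of their lists. C5, C7 and C14 were each called in 1 Flt3-ITD and 1 combined library, C3 and C6 in 1 Flt3-ITD library, C19 in 1 combined library, and C1 in 6 libraries. In total 5 of the 20 regions were called in all 8 libraries (25.0%, against 31.5% in the series), and in 7 both libraries of every genotype had the same call (35%, against 42.7%). At Spi1 the latter count was 10 of 20 (50%).

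**Figure D5:**
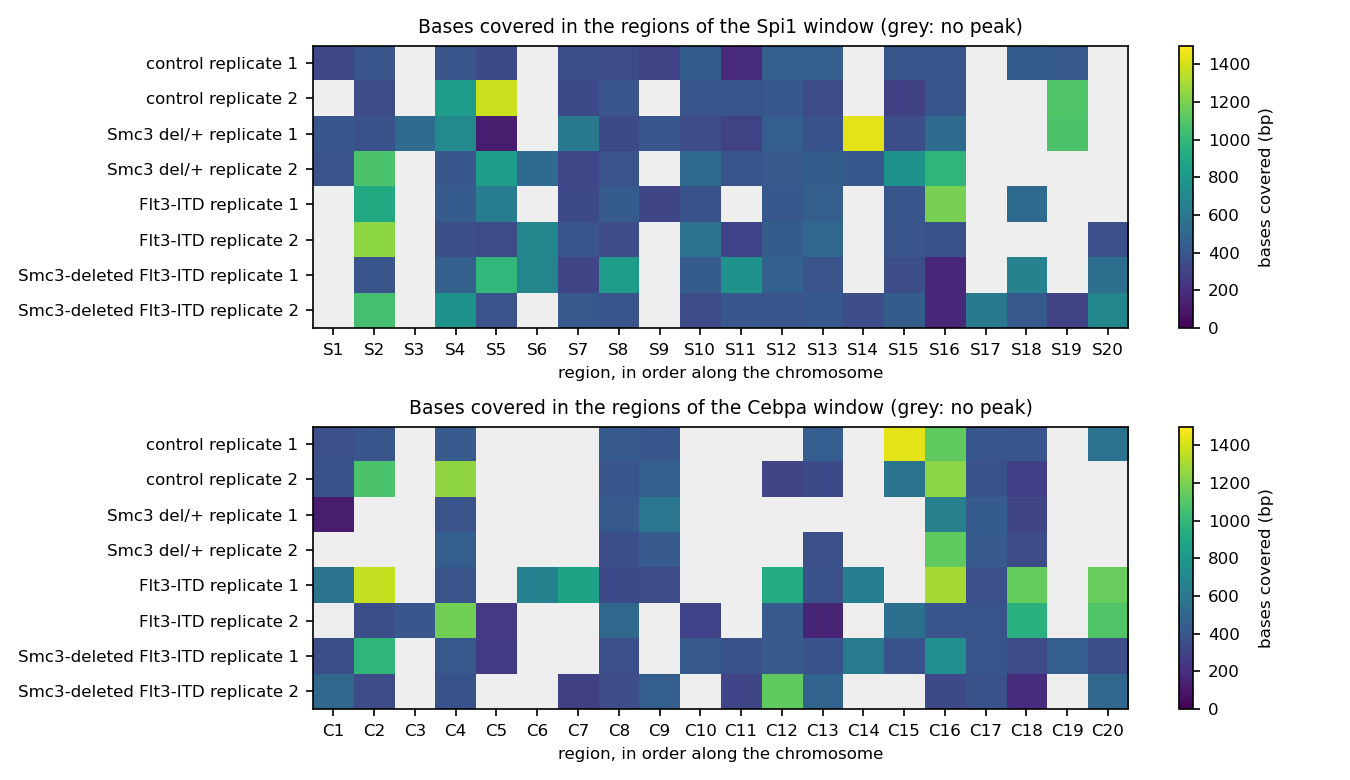
Bases covered (bp, colour) in each of the 40 regions (horizontal axes, in order along the chromosome) in each library (rows). Grey cells have no peak. The Smc3 del/+ rows are grey at C2, C12, C15 and C20, as at other regions such as S18, S20 and C11, and filled at S1 and S14. Of the grey regions named, C2 and C15 are filled in both control rows.

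Each genotype pair was then read over both loci. Gained regions had a peak in each library of the genotype named first and in no library of the other, lost regions the reverse, and regions with a peak in each library of either genotype were counted. In Smc3 del/+ against control, 1 of 24 regions was gained (S14, 4.17%, against 3.02% of all regions) and 2 were lost (C2 and C15, 8.33%, against 8.04%). In Flt3-ITD against control, none of 24 was gained (4.42% of all regions) and 1 was lost (S19, 4.17%, against 7.85%). In Smc3-deleted Flt3-ITD against control, 2 of 27 were gained (S20 and C11, 7.41%, against 14.2%) and none was lost (6% of all regions). These comparisons share their control libraries. The shares at these loci lay near or under those of the series. The part of the longer lists of the combined genotype in its gains was not tested.

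Adding Smc3 deletion to Flt3-ITD gained 1 of 24 regions (C11, 4.17%, against 13% of all regions) and lost none (2.96%). With equal numbers of peaks per library it gained none and lost 1, and in the upper 50% of each list by score it gained and lost none. Against Smc3 del/+, the combined genotype gained 6 of 27 (S18, S20, C2, C11, C12 and C20, 22.2%, against 19.7%) and lost 1 (S1, 3.70%, against 5.95%). Flt3-ITD against Smc3 del/+ gained 3 of 23 (C2, C12 and C20, 13%, against 8.69%) and lost 2 (S1 and S14, 8.70%, against 7.91%). Without C20 these gains were 5 and 2. The gains of Flt3-ITD over Smc3 del/+ were 3 of 10 regions counted at Cebpa, C20 among them, and the losses 2 of 13 at Spi1. This split by locus rests on few regions and was not tested. Where the opposing genotype had no peak within 1 kb either, the count for Smc3 del/+ against control was 1 (C2), since control libraries had S13 beside S14 and a Smc3 del/+ library had C16 beside C15.

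No member separated 4 libraries from 4. Of 21 regions called in all libraries with or all without Flt3-ITD, none was called on 1 side alone (4.42% of all such regions in the series). The count was 0 of 18 for Smc3 deletion (0.705%) and 0 of 19 for the interaction (0.910%). Nor did bases covered in the 15 regions called in all 8 libraries fall into 2 ranges for any contrast, where 3.16% (Flt3-ITD), 2.80% (Smc3 deletion) and 4.12% (interaction) of 36101 regions did. In limma's test none of the 15 passed an adjusted p of 0.05 in any contrast, and nor did any region of the series (0%). At an unadjusted p under 0.05 the count was 1 of 15 for Flt3-ITD (C18; 6.86% of all regions), 1 for Smc3 deletion (C18; 6.09%) and 2 for the interaction (S16 and C18; 7.11%). Median log2 differences of the 15 were -0.02, -0.13 and 0.02 in that order, against 0.003, -0.006 and -0.02 over all regions.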

How the data were processed

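Each of the 8 libraries has 1 peak list with 6 columns and no header. The authors' score, deposited between 0.99 and 1, ranks peaks within a list. The peak caller, and what the score measures, were not given in the sources used here. Per the submitters' processing notes, Bowtie and mm9 were used. Peak starts and ends, deposited in bp and counted from 0, gave other values, such as widths and bases covered, and were turned to count from 1.

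Peaks sharing 1 base were merged over all libraries, and bases covered by each library were counted per region and per window. Window totals were compared by exact two-sided permutation tests (6 tests, Benjamini-Hochberg). log2 bases covered, centred on each library's median, were fitted with limma 3.58.1 (R 4.3.3) over 36101 regions called in all 8 libraries. Tiled windows of the same length served as background and were added after the data were seen. Python 3.11.15, numpy 2.4.6 and scipy 1.17.1 were used. Peak merging, the counting of bases and the limma fit were tested on simulated data, and the other steps were not. Named regions were those gained or lost in a pair, those past a test, the 3 per locus with the largest mean bases covered among regions called in all 8 libraries, and those at the Cebpa start and enhancer distance. Others were named after their values were seen. The loci and lists were chosen with earlier results of these data known. Alternatives are in the closing section.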

Additional observations from a re-analysis of the deposited data

How the results depend on the processing

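None of the tests passed after adjustment, read depth is unknown, and with 2 libraries per genotype a call missed in 1 library changes a pair count.

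In bases covered, the Smc3 deletion difference at Spi1 was 623 (exact permutation p = 0.114) in the upper 50% of each list by score, 29.7 bases per Mb of list (p = 0.143), 1842 without both combined libraries (exact p = 0.0667, the smallest possible, a removal chosen after seeing the data) and 1546.5 with a replicate block (exact p = 0.0556, the smallest possible). The block changed no other call, and replicate numbers did not pair libraries (correlations of deviations from -0.0133 to 0.00861). The Flt3-ITD difference at Spi1 turned to 357.5, and the interaction to 252.5, in the upper 50%. At Cebpa the Smc3 deletion difference was -2733 (exact permutation p = 0.0286), the Flt3-ITD difference 1191 and the interaction -26.3 with equal numbers of peaks, and they were -942 (exact permutation p = 0.229), 1183 and 33.5 in the upper 50%. Exchanging Flt3-ITD and Smc3 del/+, as the descriptions have them, swaps those contrasts by construction: Flt3-ITD became 1546.5 at Spi1 and -2312 at Cebpa, and Smc3 deletion -169 and 2073. Leaving out each library gave -656 to 239.7 (Flt3-ITD), 1346 to 1663 (Smc3 deletion) and -724 to -33.3 (interaction) at Spi1, and 1238 to 2719, -3079 to -1516.5 and -96.7 to 2038 at Cebpa. The cause of the other changes was not tested.

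Regions gained or lost, of main counts 3, 1, 2, 1, 7 and 5 in the order of the pairs, were 1 (Smc3 del/+ against control) with no peak within 1 kb, 0 and 1 (Flt3-ITD and the combined genotype against control) and 3 (combined against Smc3 del/+) with equal peak numbers, 0 (combined against Flt3-ITD), 4 (combined against Smc3 del/+) and 3 (Flt3-ITD against Smc3 del/+) in the upper 50%, and 2 (combined against Flt3-ITD) when peaks were joined at 100 bp. With equal peak numbers the 1 region between the combined genotype and Flt3-ITD was a loss in place of the gain of C11. With genotypes exchanged they were 1 (Smc3 del/+ against control), 3 (Flt3-ITD against control), 7 (combined against Flt3-ITD) and 1 (combined against Smc3 del/+). Leaving out a library, which loosens the rule, gave 5 to 6, 2 to 8, 4 to 9, 2 to 5, 8 to 14 and 5 to 11, the highest without Smc3 del/+ replicate 1, Flt3-ITD replicate 1, the combined replicate 2, Flt3-ITD replicate 2, the combined replicate 2 and Flt3-ITD replicate 1. No alternative gave a member region with a changed width.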
